A study of Mus musculus with 28 samples.

Results

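The genes described here are 10 receptors for feeding and hormone signals, *Lepr*, *Mc4r*, *Mc3r*, *Ghsr*, *Npy1r*, *Prlr*, *Esr1*, *Insr*, *Hcrtr1* and *Hcrtr2*, chosen by name out of 29878 genes counted in each of 28 RNA-seq libraries. The libraries came from dorsal striatum, ventral striatum, motor cortex and hypothalamus of adult male mice aged 2 to 3 months, backcrossed onto C57Bl/6. The animals were wild-type (WT), heterozygous for a deletion of *Hdc* (Het) or without a working copy of it (KO). *Hdc* encodes histidine decarboxylase, the enzyme that makes histamine, and in these mice it was lost from every tissue from conception rather than from one cell type or at one age. Dorsal striatum was represented by 2 WT, 3 Het and 2 KO libraries, ventral striatum and hypothalamus each by 3 WT, 3 Het and 2 KO libraries, and motor cortex by 1 WT, 2 Het and 2 KO libraries. The library names end in a digit (1 to 3 in WT, 4 to 6 in Het, 7 and 8 in KO), which is used here as the replicate number. The sources used here do not say that libraries of a group came from separate animals, so p-values measure the spread between these libraries, which may be technical.

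Energy balance is read out in the brain by receptors for circulating hormones and for the peptides that hypothalamic neurons send each other. *Lepr* encodes the receptor for leptin from fat, *Ghsr* the receptor for ghrelin from the stomach and *Insr* the receptor for insulin. *Mc3r* and *Mc4r* encode melanocortin receptors, which bind the product of *Pomc* neurons and are opposed by AgRP. *Npy1r* encodes a receptor for neuropeptide Y. *Hcrtr1* and *Hcrtr2* encode the receptors for the orexin peptides of the lateral hypothalamus, which act on histamine neurons among other cells. *Prlr* and *Esr1* encode the receptors for prolactin and estradiol, and the estradiol receptor is a nuclear receptor that binds DNA.

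The genes lie on separate loci of GRCm38. *Lepr* is at chr4:101717404-101815352 (+), *Ghsr* at chr3:27371351-27378010 (+), *Insr* at chr8:3122061-3279617 (−) and *Mc3r* at chr2:172248492-172251114 (+). *Npy1r* is at chr8:66697192-66706792 (+), *Hcrtr1* at chr4:130130217-130139359 (−), *Hcrtr2* at chr9:76225880-76323856 (−), *Prlr* at chr15:10177238-10349180 (+) and *Esr1* at chr10:4611593-5005614 (+). Annotated exons covered between 2608 bp in *Hcrtr1* and 15339 bp in *Prlr*. *Prlr* shared 203 bp of exon, 1.3% of its own, with *Gm21973*, and no other member shared exon sequence with another gene.

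Promoter sequence is printed for *Lepr*, *Mc3r*, *Ghsr* and *Prlr*, the members higher in hypothalamus than in each other region whose RefSeq start lay within 3 bases of the annotated start. Each line holds the 250 bases before that start on GRCm38.p6, from RefSeq, on the plus strand. Capitals mark GGTCA on either strand, the core letters of the estrogen response element.
Lepr, chr4:101717157-101717406: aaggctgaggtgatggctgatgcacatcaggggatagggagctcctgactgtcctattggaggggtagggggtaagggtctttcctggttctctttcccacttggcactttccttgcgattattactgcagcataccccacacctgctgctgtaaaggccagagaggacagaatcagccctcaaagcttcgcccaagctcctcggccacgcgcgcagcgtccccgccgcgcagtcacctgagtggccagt
Mc3r, chr2:172248242-172248491: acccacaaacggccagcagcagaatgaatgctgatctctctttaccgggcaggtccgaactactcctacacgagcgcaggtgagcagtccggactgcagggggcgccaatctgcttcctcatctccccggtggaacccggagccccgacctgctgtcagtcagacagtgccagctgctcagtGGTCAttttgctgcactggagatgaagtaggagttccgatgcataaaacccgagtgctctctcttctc
Ghsr, chr3:27371101-27371350: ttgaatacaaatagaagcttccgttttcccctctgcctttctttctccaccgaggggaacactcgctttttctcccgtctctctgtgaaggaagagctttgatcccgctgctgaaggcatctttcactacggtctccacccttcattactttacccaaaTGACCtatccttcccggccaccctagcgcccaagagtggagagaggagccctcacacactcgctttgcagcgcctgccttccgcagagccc
Prlr, chr15:10176988-10177237: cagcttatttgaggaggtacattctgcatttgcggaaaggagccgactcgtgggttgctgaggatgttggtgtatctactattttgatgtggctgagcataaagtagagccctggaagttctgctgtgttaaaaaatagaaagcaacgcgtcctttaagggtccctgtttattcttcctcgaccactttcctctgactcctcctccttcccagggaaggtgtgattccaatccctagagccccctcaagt
GGTCA occurred once in *Mc3r* and once in *Ghsr*, and 35.2% of 32851 RefSeq promoter windows of this length hold it. None of the 4 windows held TTCNNNGAA (the STAT motif, in 7.02% of windows), TATAAA (the TATA box, 12.4%), TGACGTCA (the cAMP response element, 1.55%) or CACGTG (the E-box, 6.02%), read on both strands. GC content was 58.4% in *Lepr*, 57.6% in *Mc3r*, 54.0% in *Ghsr* and 48.0% in *Prlr*.

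Libraries held 3536802 to 5150280 reads on genes, and values are given as CPM, read counts scaled to library size with TMM factors, which correct for libraries in which a few genes take up many reads. *Hdc* had 0 to 1.62 CPM in WT libraries outside the hypothalamus, 4.17 to 6.73 in Het and 7.84 to 12.9 in KO, while in the hypothalamus it had 15.3 to 19.1 CPM in WT and 11.7 to 14.2 in KO. These counts cover the whole gene and do not isolate the deleted part, so they do not check the genotype labels. The hypothalamus libraries held its defining markers, with 80 to 222 counts of *Otp* against at most 7 elsewhere and 27 to 81 of *Sim1* against at most 5. They also held thalamic markers, whose summed level was 502 to 1020 CPM against at most 215 elsewhere. Of 6 pituitary markers, *Gh* and *Pou1f1* were at 0 and *Prl* at 0 or 1 count in every hypothalamus library, while *Tshb* had 3 to 12 counts there, *Cga* 0 to 13 and *Pitx1* 0 to 2. The part of pituitary tissue in the receptor levels was not tested. KO dorsal striatum replicate 8 stood apart, with 3930 CPM of 12 summed choroid plexus markers against 123 to 276 in the other 27 libraries. KO hypothalamus replicate 8 had 571 CPM of 10 summed cortical excitatory neuron markers against 215 to 337 in the other 7 hypothalamus libraries. Het hypothalamus replicate 6 had the lowest summed hypothalamic markers, 54.2 CPM against 79.1 to 145 in the others. Het dorsal striatum replicate 4 had the lowest share of its reads on genes, 44.78%. Its counts differed from Het replicates 5 and 6 by a chi-square per degree of freedom of 13.61 and 14.59, against 2.29 between those.

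**Figure D1:**
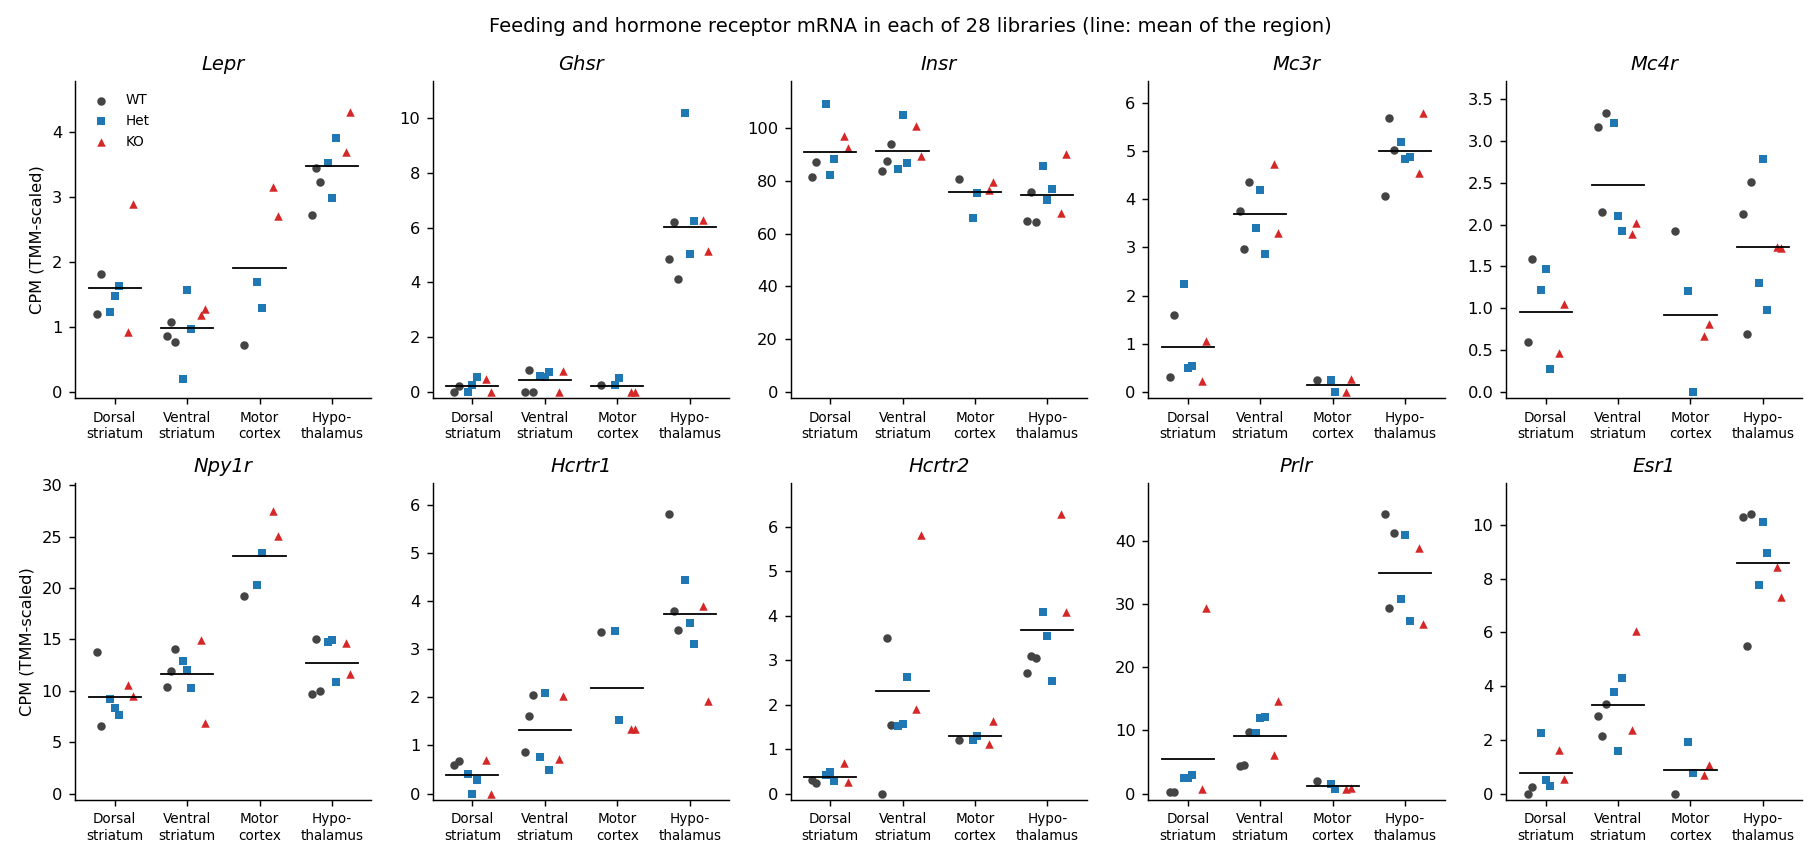
Level of each receptor mRNA in CPM (vertical axis, linear, own scale per gene) in the 28 libraries by region, with WT as circles, Het as squares and KO as triangles, and a line at the mean of each region. *Ghsr* is near 0 outside the hypothalamus, *Npy1r* is highest in motor cortex, *Insr* is similar everywhere, and 1 KO dorsal striatum library stands at 29.4 CPM of *Prlr*.

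All 10 members passed the filter of more than 1 CPM in at least 2 libraries. *Ghsr* passed through the hypothalamus alone, where its 8 libraries were the only ones above 1 CPM. *Insr* and *Npy1r* were above 1 CPM in all 28 libraries. Per kilobase of exon, the scale on which genes can be compared, the mean level in hypothalamus was highest for *Insr* (5.44 CPM per kb), followed by *Npy1r* (3.68), *Prlr* (2.28), *Mc3r* (1.91), *Hcrtr1* (1.43) and *Ghsr* (1.35). *Esr1* (0.629), *Mc4r* (0.617), *Hcrtr2* (0.596) and *Lepr* (0.492) formed the lower end. In motor cortex the order was *Npy1r* (6.69), *Insr* (5.51), *Hcrtr1* (0.842), *Mc4r* (0.329), *Lepr* (0.271) and *Hcrtr2* (0.209), with the other 4 at 0.0734 or less.

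The first question was how the receptors differ between regions. Against dorsal striatum, edgeR called 9 members higher in hypothalamus and 1 (*Insr*) lower, where 56.1% of the 14979 genes tested were called, 30.7% higher and 25.5% lower. Against ventral striatum it called 7 higher and 1 (*Insr*) lower, where 43.6% of genes were called, 23.9% higher and 19.7% lower. Against motor cortex it called 6 higher and 1 (*Npy1r*) lower, where 48.2% of genes were called, 25.4% higher and 22.9% lower. *Ghsr* is among the members higher in all 3 comparisons and had to differ, since it passed the filter only through the hypothalamus. Without it 8, 6 and 5 members were higher, and the median log2 difference of the other 9 members was 2.43, 0.68 and 1.24. Over all genes tested, leaving out those that passed the filter only through the hypothalamus, it was 0.03, 0.02 and 0.03. *Lepr*, *Mc3r*, *Prlr*, *Esr1* and *Hcrtr2*, 5 of those 9, were called higher in hypothalamus in every one of the 3 comparisons. So were 11.7% of all genes tested, or 1758 genes. Leaving out the 472 genes that passed the filter only through the hypothalamus, 1588 of them remained. In tissue of this kind, fewer cells of a type and less RNA per cell cannot be told apart.

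Among the other regions, 6 members were higher in ventral than in dorsal striatum and 0 lower, where 29% of genes were called, 14.4% higher and 14.6% lower. Those 6 were *Mc4r*, *Mc3r*, *Prlr*, *Esr1*, *Hcrtr1* and *Hcrtr2*. Motor cortex was above dorsal striatum for 3 members (*Npy1r*, *Hcrtr1*, *Hcrtr2*) and below it for 2 (*Mc3r*, *Insr*), where 43.4% of genes were called, 22% higher and 21.4% lower. Against ventral striatum, motor cortex was above for 1 member (*Npy1r*) and below for 5 (*Mc4r*, *Mc3r*, *Prlr*, *Esr1*, *Insr*), where 43.7% of genes were called, 21.5% higher and 22.2% lower. Leaving out WT dorsal striatum replicate 2 lowered the 5 calls between motor cortex and dorsal striatum to 3.

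**Figure D2:**
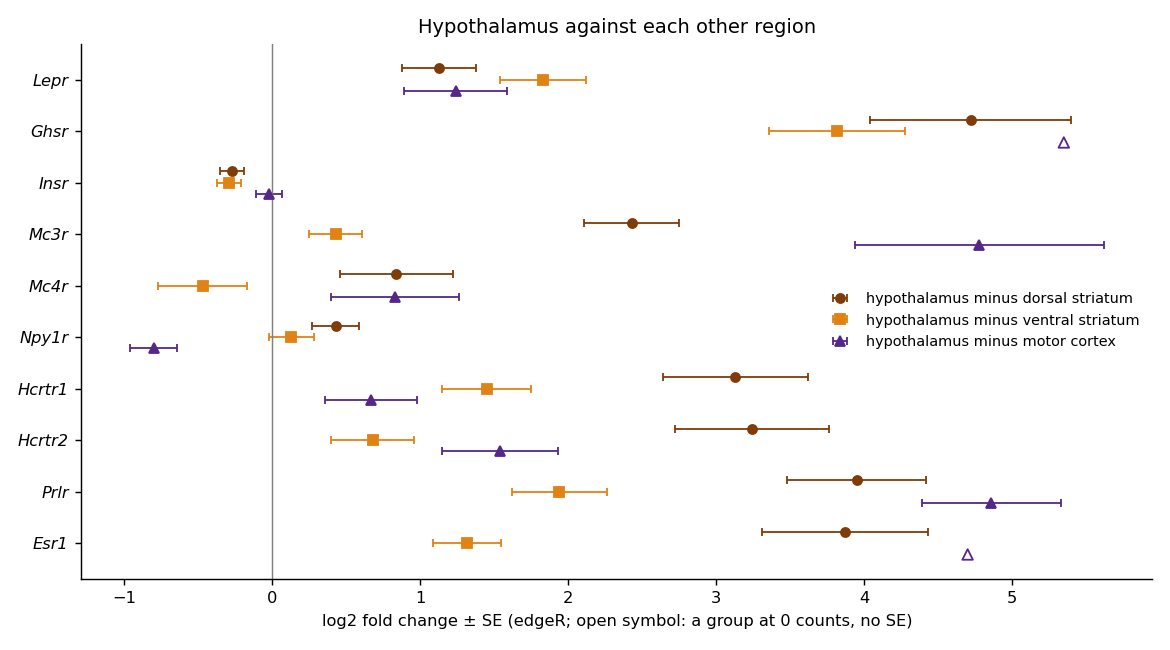
Log2 fold change of hypothalamus over dorsal striatum (circles), ventral striatum (squares) and motor cortex (triangles) for each receptor, with the SE of the edgeR fit as a bar; open triangles mark *Ghsr* and *Esr1*, where a motor cortex group had 0 counts and no SE exists. *Insr* lies near 0 in all 3 comparisons and *Ghsr* is at 3.82 or above in each.

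Of the receptors for circulating signals of energy stores, *Ghsr* was found mainly in the hypothalamus. It had 4.12 to 10.2 CPM there (median 5.68, n = 8), 0 to 0.545 in dorsal striatum (median 0.227, n = 7) and 0 to 0.808 in ventral striatum (median 0.546, n = 8). The motor cortex libraries had 0.240 (WT), 0.241 and 0.515 (Het) and 0 and 0 CPM (KO). The hypothalamus libraries thus overlapped with no other library, and the lowest held 23 counts against at most 3 elsewhere. Counts per TMM-scaled library size, summed over the libraries of a region, were 28.6-fold higher in hypothalamus than in dorsal striatum (exact 95% counting interval 13 to 78.8), 14-fold higher than in ventral striatum (8.18 to 25.9) and 30.6-fold higher than in motor cortex (11.8 to 113). No p is given for these 3 differences, since a gene that entered the fit through the hypothalamus alone had to differ there. Such intervals cover counting error only. The fitted log2 difference from dorsal striatum was 4.72, and it was 5.81 without KO replicate 7 and 5.54 without WT replicate 2 of that region. From ventral striatum it was 3.82, and it was 5.09 without KO replicate 8 and 4.95 without WT replicate 2. Dorsal striatum, ventral striatum and motor cortex did not differ from each other beyond their spread (adjusted p 0.131 to 0.504).

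*Lepr* was present at low level in all 4 regions. It had 2.71 to 4.30 CPM in hypothalamus (median 3.48, n = 8), 0.921 to 2.89 in dorsal striatum (median 1.47, n = 7) and 0.190 to 1.57 in ventral striatum (median 1.02, n = 8). Motor cortex had 0.721 in WT, 1.69 and 1.29 in Het and 3.14 and 2.70 in KO. All hypothalamus libraries were above all ventral striatum libraries, while single dorsal striatum and motor cortex libraries reached into the hypothalamic range. The log2 difference of hypothalamus was 1.83 ± 0.29 (SE) from ventral striatum (edgeR adjusted p = 4.13e-12), 1.13 ± 0.25 from dorsal striatum (4.42e-06) and 1.24 ± 0.35 from motor cortex (8.34e-05). Ventral against dorsal striatum gave −0.70 ± 0.34 (adjusted p = 0.0982), which was called without Het ventral striatum replicate 5 (−0.91, 0.0392) or KO dorsal striatum replicate 7 (−0.91, 0.0318). Motor cortex against ventral striatum gave 0.59 ± 0.42 (0.273), and 1.04 (0.025) without the WT motor cortex library. Leaving out that library, here and for the genes below, also took WT out of the other region. Such a region comparison rests on Het and KO alone.

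On the CPM scale *Insr* had the highest mean of the members in every region, while per kilobase *Npy1r* was above it in motor cortex. It had 64.5 to 90.1 CPM in hypothalamus (median 74.3, n = 8), 81.5 to 109 in dorsal striatum (median 88.3, n = 7) and 83.6 to 105 in ventral striatum (median 88.5, n = 8). Motor cortex had 80.8 in WT, 66.1 and 75.6 in Het and 76.4 and 79.5 in KO. The ranges of hypothalamus and both striata overlapped, and every motor cortex library was below every striatal one. Hypothalamus was lower by a log2 difference of −0.27 ± 0.08 (SE) from dorsal striatum (edgeR adjusted p = 0.00193) and −0.29 ± 0.08 from ventral striatum (9.71e-04). Scaled by library size alone, without TMM, these were 0.09 (0.394) and −0.08 (0.463). The direction of *Insr* against dorsal striatum thus rests on the scaling. Against ventral striatum the direction stayed, and the size and the call rest on it. Size-only scaling shifted the median log2 difference of all genes between hypothalamus and dorsal striatum from 0.045 to 0.406, ventral striatum from 0.033 to 0.243 and motor cortex from 0.046 to 0.28. *Insr* in motor cortex was lower than in ventral striatum (−0.26 ± 0.09, 0.0136; 0.0561 without Het motor cortex replicate 5) and than in dorsal striatum (−0.25 ± 0.10, 0.0242). The last call was lost in 5 of 12 leave-outs, with adjusted p of 0.0531 to 0.0843, namely without Het replicate 4, KO replicate 7 or WT replicate 2 of dorsal striatum or Het replicate 5 or KO replicate 7 of motor cortex. It was also lost with size-only scaling (−0.12, 0.351), with no filter on low counts (−0.24, 0.0527) and with WT libraries alone (−0.07, 0.872). With WT libraries alone, the calls against ventral striatum in motor cortex (−0.13, 0.689) and against dorsal striatum in hypothalamus (−0.31, 0.0727) ended too.

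The melanocortin receptors did not share a pattern. *Mc3r*, the subtype found on *Pomc* and *Agrp* neurons themselves, had 4.07 to 5.80 CPM in hypothalamus (median 4.94, n = 8), 2.87 to 4.73 in ventral striatum (median 3.58, n = 8) and 0.230 to 2.24 in dorsal striatum (median 0.545, n = 7). In motor cortex it had 0.240 in WT, 0.241 and 0 in Het and 0 and 0.270 in KO, that is 3 counts over 5 libraries. The order ran from hypothalamus through ventral and dorsal striatum to motor cortex, and ventral and dorsal striatum did not overlap. Ventral striatum was above dorsal by a log2 difference of 2.00 ± 0.33 (SE; edgeR adjusted p = 3.25e-11) and hypothalamus above dorsal by 2.43 ± 0.32 (2.16e-20). Hypothalamus and ventral striatum overlapped and differed by 0.43 ± 0.18 (0.0319), a call lost in 8 of 16 leave-outs with adjusted p of 0.055 to 0.125. Those 8 were Het replicate 4, KO replicate 8 and WT replicates 2 and 3 of hypothalamus and Het replicates 4 and 6, KO replicate 8 and WT replicate 2 of ventral striatum. It was also lost with the replicate number as a block (0.43, 0.0696), with the quasi-likelihood test (0.43, 0.103), DESeq2 (0.41, 0.218), no filter on low counts (0.41, 0.0878) and WT libraries alone (0.42, 0.286). Against motor cortex, *Mc3r* counts per TMM-scaled library size were 34-fold higher in hypothalamus (exact 95% counting interval 11.5 to 166; 2.88e-28). Dorsal striatum was above motor cortex as well, with a count ratio of motor cortex to dorsal striatum of 0.150 (0.0292 to 0.487; 0.00155). That call was lost without KO replicate 8 (adjusted p = 0.0818) or WT replicate 2 (0.106) of dorsal striatum, or with WT libraries alone (−1.98, 0.277). Without Het replicate 5 or KO replicate 8 of motor cortex, each of which leaves a genotype at 0, the fitted log2 difference between hypothalamus and motor cortex went from 4.78 to 5.59 and 5.57, that between motor cortex and dorsal striatum from −2.35 to −3.16 and −3.16, and that between motor cortex and ventral striatum from −4.35 to −5.16 and −5.17.

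*Mc4r*, at chr18:66857704-66860506 (−), encodes the subtype whose loss causes obesity in mice and people, and it was highest in ventral striatum by mean. It had 1.89 to 3.34 CPM there (median 2.13, n = 8), 0.689 to 2.79 in hypothalamus (median 1.73, n = 8) and 0.272 to 1.59 in dorsal striatum (median 1.05, n = 7). Motor cortex had 1.92 in WT, 1.21 and 0 in Het and 0.672 and 0.811 in KO. Ventral striatum lay wholly above dorsal striatum and overlapped with hypothalamus. The log2 difference was 1.31 ± 0.38 (SE) between ventral and dorsal striatum (edgeR adjusted p = 0.00157) and −0.47 ± 0.30 between hypothalamus and ventral striatum (0.2; 95% interval of the fold 0.479 to 1.09). Motor cortex was below ventral striatum by −1.30 ± 0.43 (0.00408), and by −2.80 (1.80e-04) without Het motor cortex replicate 5. Hypothalamus was above dorsal striatum by 0.84 ± 0.38 (0.0397), with 4 to 15 counts per hypothalamus library. That call was lost in 8 of 15 leave-outs with adjusted p of 0.0663 to 0.141, namely without Het replicate 5, KO replicates 7 and 8 or WT replicates 1 and 3 of hypothalamus or Het replicate 6, KO replicate 7 or WT replicate 1 of dorsal striatum. The quasi-likelihood test (0.84, 0.0741), a fit with the replicate number as a block (0.75, 0.0635), DESeq2 (0.84, 0.108), no filter on low counts (0.83, 0.0586) and WT libraries alone (0.61, 0.459) also ended it. WT libraries alone ended the calls of ventral striatum against dorsal striatum (1.31, 0.131) and motor cortex (−0.58, 0.626) as well. The difference from motor cortex was 0.83 ± 0.43 (0.0823), and it was called without Het motor cortex replicate 5 (2.33, 0.00442), WT motor cortex replicate 2 (1.30, 0.0252), Het hypothalamus replicate 6 (0.92, 0.0499) or WT hypothalamus replicate 2 (0.94, 0.0322), and with size-only scaling (adjusted p = 0.0222).

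*Npy1r* was the only member with its highest level in cortex. Motor cortex had 19.2 CPM in WT, 20.3 and 23.4 in Het and 27.5 and 25.1 in KO. The other regions had 9.68 to 15.0 in hypothalamus (median 13.2, n = 8), 6.83 to 14.9 in ventral striatum (median 12, n = 8) and 6.57 to 13.8 in dorsal striatum (median 9.17, n = 7). The 5 motor cortex libraries were thus above the other 23, and the other 3 regions overlapped. Motor cortex exceeded dorsal striatum by a log2 difference of 1.24 ± 0.17 (SE; edgeR adjusted p = 5.21e-12), ventral striatum by 0.94 ± 0.16 (5.75e-08) and hypothalamus minus motor cortex was −0.80 ± 0.16 (1.82e-06). Hypothalamus was above dorsal striatum by 0.43 ± 0.16 (0.0118), a call lost without KO hypothalamus replicate 7 (0.0774), WT hypothalamus replicate 2 (0.053) or WT dorsal striatum replicate 2 (0.135). With WT libraries alone, that call (0.23, 0.547) and those of motor cortex against hypothalamus (−0.73, 0.0678, as hypothalamus minus motor cortex) and ventral striatum (0.66, 0.13) were lost. Hypothalamus and ventral striatum gave 0.13 ± 0.15 (0.49; 95% interval of the fold 0.898 to 1.34), called with size-only scaling (0.35, 0.031). Ventral against dorsal striatum gave 0.30 ± 0.16 (0.163), which was called without KO ventral striatum replicate 8 (0.45, 0.0197) or WT dorsal striatum replicate 1 (0.50, 0.0181), or with size-only scaling (0.45, 0.0182).

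The orexin receptors were both lowest in dorsal striatum. *Hcrtr1*, which binds orexin A with preference, had 1.93 to 5.81 CPM in hypothalamus (median 3.66, n = 8), 0.479 to 2.10 in ventral striatum (median 1.24, n = 8) and 0 to 0.691 in dorsal striatum (median 0.408, n = 7). Motor cortex had 3.36 in WT, 3.38 and 1.54 in Het and 1.34 and 1.35 in KO. Dorsal striatum did not overlap with hypothalamus or motor cortex. Hypothalamus was above dorsal striatum by a log2 difference of 3.13 ± 0.49 (SE; edgeR adjusted p = 1.09e-15), and by 4.40 without KO dorsal striatum replicate 7. Hypothalamus was above ventral striatum by 1.45 ± 0.30 (2.23e-06). From motor cortex it differed by 0.67 ± 0.31 (0.0529), which was called without Het replicate 6 (0.71, 0.0498) or KO replicate 8 (0.81, 0.0201) of hypothalamus or Het replicate 5 of motor cortex (0.90, 0.019), with size-only scaling (0.91, 0.00737) and with the choroid plexus covariate (0.93, 0.0388). Motor cortex was above dorsal striatum by 2.46 ± 0.53 (5.54e-07), and 3.73 without KO dorsal striatum replicate 7, and ventral above dorsal striatum by 1.69 ± 0.53 (0.00152), and 2.95 without that library. With WT libraries alone the last call was lost (1.21, 0.298). Motor cortex against ventral striatum gave 0.77 ± 0.36 (0.0671), called without Het motor cortex replicate 6 (0.92, 0.0321), Het replicate 5 (1.02, 0.0186), KO replicate 8 (1.07, 0.0228) or WT replicate 3 (0.87, 0.0489) of ventral striatum.

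*Hcrtr2*, the orexin receptor of the histamine neurons, had 2.53 to 6.28 CPM in hypothalamus (median 3.32, n = 8), 0 to 5.82 in ventral striatum (median 1.73, n = 8) and 0.227 to 0.691 in dorsal striatum (median 0.300, n = 7). Motor cortex had 1.20 in WT, 1.21 and 1.29 in Het and 1.12 and 1.62 in KO. Hypothalamus lay above motor cortex and motor cortex above dorsal striatum without overlap, while ventral striatum spread over the range of all 3. Counts of *Hcrtr2* per TMM-scaled library size were 9.40-fold higher in hypothalamus than in dorsal striatum (exact 95% counting interval 5.10 to 19.2; edgeR adjusted p = 7.80e-15). The log2 difference of hypothalamus from motor cortex was 1.54 ± 0.39 (SE; 1.15e-04), that of motor cortex from dorsal striatum 1.70 ± 0.60 (0.00597) and that of ventral from dorsal striatum 2.56 ± 0.54 (9.10e-08). Hypothalamus and ventral striatum differed by 0.68 ± 0.28 (0.0333), a call lost in 11 of 16 leave-outs with adjusted p of 0.0517 to 0.16. Those were every WT library, Het replicates 4 and 5 and KO replicate 7 of hypothalamus and Het replicates 4 and 5, KO replicate 7 and WT replicates 1 and 3 of ventral striatum. It was also lost with DESeq2 (0.67, 0.117) and with WT libraries alone (0.78, 0.231). WT libraries alone ended the calls of hypothalamus against motor cortex (1.28, 0.226) and motor cortex against dorsal striatum (2.10, 0.21) too. Motor cortex against ventral striatum gave −0.86 ± 0.41 (0.0669), called without KO replicate 7 (−1.06, 0.0125) or WT replicate 1 (−1.04, 0.0137) of ventral striatum or the WT motor cortex library (−1.04, 0.0455). The summed thalamic markers were 502 to 1020 CPM in hypothalamus, 52.5 to 215 in ventral striatum, 45.4 to 57.9 in motor cortex and 27.0 to 52.0 in dorsal striatum, with none of the 6 at 0 in a hypothalamus or ventral striatum library. Their part in the regional levels of *Hcrtr1* and *Hcrtr2* was not tested.

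*Prlr* had the largest level after *Insr* in hypothalamus on the CPM scale. It had 26.9 to 44.3 CPM there (median 34.9, n = 8), 4.33 to 14.7 in ventral striatum (median 9.71, n = 8) and 0.227 to 29.4 in dorsal striatum (median 2.45, n = 7). Motor cortex had 1.92 in WT, 1.45 and 0.772 in Het and 0.672 and 0.811 in KO. Hypothalamus was above ventral striatum and ventral striatum above motor cortex without overlap, and the dorsal striatum range was set by KO replicate 8, the library with choroid plexus markers, without which it ended at 3.00. The log2 difference of hypothalamus was 1.94 ± 0.32 (SE) from ventral striatum (edgeR adjusted p = 2.12e-08), 4.86 ± 0.47 from motor cortex (7.86e-19) and 3.95 ± 0.47 from dorsal striatum (3.31e-20). Without KO dorsal striatum replicate 8 the difference from dorsal striatum was 5.41 (5.04e-68), and that of ventral from dorsal striatum went from 2.01 ± 0.48 (1.77e-05) to 3.47 (6.15e-23). Motor cortex was below ventral striatum by −2.92 ± 0.47 (1.26e-08; −3.54 without the WT motor cortex library). Against dorsal striatum it gave −0.91 ± 0.59 (0.243), and 0.55 without KO dorsal striatum replicate 8. Without the WT motor cortex library it gave −2.75 (3.58e-06), which is the difference in Het and KO alone. In WT the mean was 1.92 CPM in motor cortex and 0.263 in dorsal striatum, the other direction. With WT libraries alone, motor cortex against ventral striatum was not called (−1.68, 0.182). Summed choroid plexus markers were 178 to 276 CPM in hypothalamus and 160 to 267 in ventral striatum, ranges that overlap. Motor cortex had 213 to 240, and WT dorsal striatum had 123 with 6 or 7 of the 12 markers at 0. Sums at this level rest on part of the list and do not measure choroid plexus content.

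*Esr1* had 5.51 to 10.4 CPM in hypothalamus (median 8.71, n = 8), 1.57 to 6.07 in ventral striatum (median 3.11, n = 8) and 0 to 2.24 in dorsal striatum (median 0.490, n = 7). Motor cortex had 0 in WT, 1.93 and 0.772 in Het and 0.672 and 1.08 in KO. Every hypothalamus library was above every dorsal striatum and motor cortex library, and 1 ventral striatum library reached into the hypothalamic range. Counts of *Esr1* per TMM-scaled library size were 10.2-fold higher in hypothalamus than in dorsal striatum (exact 95% counting interval 6.75 to 16.1; edgeR adjusted p = 1.31e-28), 2.56-fold higher than in ventral striatum (2.06 to 3.20; 5.39e-08) and 9.70-fold higher than in motor cortex (6.05 to 16.6; 2.86e-21). The fitted log2 difference from dorsal striatum was 3.87, and 4.69 without WT dorsal striatum replicate 2. That from motor cortex was 4.70 with the WT library at 0, and 2.92 (8.60e-14) without it, in Het and KO alone. Ventral striatum was above dorsal striatum by a count ratio of 3.99 (2.54 to 6.49; 2.13e-09), with a fitted log2 difference of 2.55 that was 3.37 without WT dorsal striatum replicate 2. Motor cortex was below ventral striatum by a count ratio of 0.264 (0.151 to 0.437, edgeR adjusted p = 5.37e-08). The fitted log2 difference was −3.38, and −1.75 (1.24e-04) without the WT motor cortex library, in Het and KO alone. Motor cortex to dorsal striatum gave a count ratio of 1.05 (0.538 to 2.02). The fitted log2 difference, in which genotypes have equal weight, went the other way, at −0.83 (edgeR adjusted p = 0.502), with the WT motor cortex library at 0.

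Some libraries were high for several members at once. KO ventral striatum replicate 8 was the highest of its region for *Hcrtr2* (5.82 CPM), *Prlr* (14.7) and *Esr1* (6.07) and the lowest for *Npy1r* (6.83). The same library had the highest sum of the 12 hypothalamic markers in the ventral striatum, 55.7 CPM against 24.5 to 52.9. That list includes *Lhx8*, a gene also of the basal forebrain, so the sum does not measure hypothalamic tissue alone. Between 3 and 8 of the 12 were at 0 in ventral striatum libraries. The library also had the highest summed thalamic markers, 215 against 52.5 to 120. In hypothalamus, WT replicates 1 and 3 had more *Prlr* (44.3 and 41.4 CPM against 29.4 in replicate 2) and more *Esr1* (10.3 and 10.4 against 5.51). These 2 libraries held 23 and 30 counts of *Lhx8*, a marker of the basal forebrain, against 1 to 3 in the other 6 hypothalamus libraries. Those 6 had 26.9 to 41.0 CPM of *Prlr* and 5.51 to 10.1 of *Esr1*. Levels near those of WT replicates 1 and 3 thus also occurred with few *Lhx8* counts. The part of dissection borders in these levels was not tested.

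The second question was whether the receptors differ with *Hdc* genotype. Over 8 comparisons with WT, 80 in all across the members, edgeR called 1, *Prlr* in KO dorsal striatum, where 0.387% of genes were called, 0.354% higher and 0.0334% lower. In the other 7 comparisons 0 of 70 were called by the edgeR likelihood ratio test. At an unadjusted p under 0.05 there were 6 of these 70, and the edgeR quasi-likelihood test and DESeq2 each called 0. Of all genes, KO against WT called 0.0801% in ventral striatum (0.0601% higher, 0.02% lower), 0.0334% in motor cortex (0.02% higher, 0.0134% lower) and 0.167% in hypothalamus (0.147% higher, 0.02% lower). Het against WT called 0.0868% in dorsal striatum (0.0534% higher, 0.0334% lower), 0.0534% in ventral striatum (0.0401% higher, 0.0134% lower), 0.0134% in motor cortex (0.00668% higher, 0.00668% lower) and 0.0935% in hypothalamus (0.0401% higher, 0.0534% lower). The 6 at an unadjusted p under 0.05 were *Hcrtr2* in KO ventral striatum, *Esr1* and *Lepr* in KO motor cortex, *Prlr* and *Esr1* in Het dorsal striatum and *Esr1* in Het motor cortex. Motor cortex comparisons rest on 1 WT library.

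**Figure D3:**
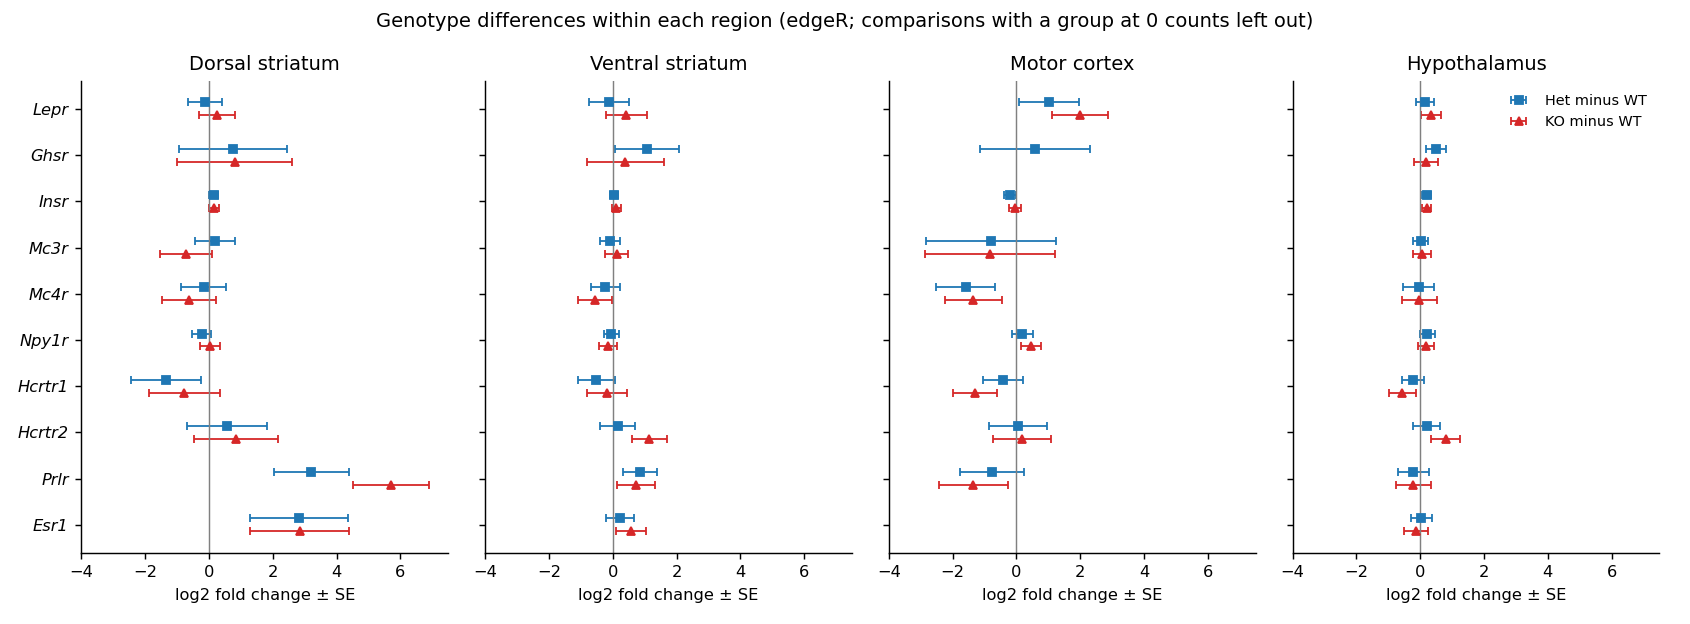
Log2 fold change of Het (squares) and KO (triangles) over WT for each receptor in the 4 regions, with the SE of the edgeR fit as a bar; *Esr1* (both) and *Ghsr* (KO) in motor cortex are left out because a group had 0 counts. In hypothalamus all differences lie between −0.56 and 0.80, and the one called difference is *Prlr* in KO dorsal striatum at 5.70.

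In hypothalamus, where most of the receptors were highest, no member was called and the log2 differences from WT were −0.56 to 0.80 in KO and −0.22 to 0.50 in Het. The 95% interval of the KO to WT fold was narrowest for *Insr* (0.953 to 1.40), and it was 0.832 to 1.93 for *Lepr*, 0.679 to 1.88 for *Ghsr*, 0.717 to 1.53 for *Mc3r* and 0.801 to 1.61 for *Npy1r*. For the other members it was 0.465 to 2.07 for *Mc4r*, 0.406 to 1.81 for *Prlr*, 0.551 to 1.49 for *Esr1* and 0.380 to 1.21 for *Hcrtr1*. The interval of *Hcrtr2* is given below.

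*Hcrtr2* came nearest to a difference in KO hypothalamus. WT libraries had 2.71, 3.10 and 3.05 CPM, Het libraries 4.08, 3.54 and 2.53 and KO libraries 6.28 and 4.08. Both KO libraries were above all WT libraries, and the Het range covered the space between. KO minus WT gave a log2 difference of 0.80 ± 0.45 (SE; edgeR adjusted p = 0.865), with a 95% interval of the fold of 0.946 to 3.22. In ventral striatum the WT libraries had 0, 3.50 and 1.54 CPM and the KO libraries 1.89 and 5.82, with 1.15 ± 0.54 (0.874). *Hcrtr1* went the other way in KO hypothalamus, at 3.90 and 1.93 CPM against 5.81, 3.79 and 3.40 in WT, with −0.56 ± 0.43 (0.972). *Lepr* was at 3.68 and 4.30 CPM in KO hypothalamus, above 2.71, 3.44 and 3.23 in WT, with 0.34 ± 0.31 (0.996). *Ghsr* was at 10.2, 5.03 and 6.24 CPM in Het hypothalamus against 4.84, 6.20 and 4.12 in WT, with 0.50 ± 0.32 (0.982).

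In motor cortex, *Lepr* had 3.14 and 2.70 CPM in KO against 0.721 in the single WT library, 14 and 10 counts against 3, with a log2 difference of 1.99 ± 0.88 (SE; edgeR adjusted p = 0.907). *Esr1* had no count in the WT motor cortex library, which allows a level of up to 0.721 CPM, and 3 and 4 counts in KO. *Ghsr* had no count in KO motor cortex, which allows up to 0.367 CPM over the pair of libraries, and 1 count in WT.

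In dorsal striatum, *Prlr* and *Esr1* were at or near 0 in WT. *Esr1* had 0 and 1 count in WT, 11, 2 and 1 in Het and 7 and 2 in KO, with log2 differences of 2.83 ± 1.53 (SE; edgeR adjusted p = 0.43) in Het and 2.84 ± 1.56 (0.415) in KO. The 11 counts were in Het replicate 4, the library with the lowest share of reads on genes. It also had the highest *Mc3r* of the region, 2.24 CPM. *Prlr* had 1 and 1 count in WT, 12, 10 and 11 in Het and 3 and 112 in KO, or 0.300 and 0.227 CPM, 2.45, 2.45 and 3.00 CPM and 0.691 and 29.4 CPM. Every Het library was above both WT libraries, and the KO libraries were far apart. KO minus WT gave a log2 difference of 5.70 ± 1.19 (4.99e-06), and Het minus WT gave 3.21 ± 1.18 (0.218). Without KO replicate 8 the KO difference was 1.33 (1.0), and without KO replicate 7 it was 6.68 (3.94e-23). The edgeR quasi-likelihood test gave 5.66 (0.066). With KO replicate 8 included, DESeq2, size-only scaling, no filter and the libraries of the region alone kept the call.

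The *Prlr* value of KO replicate 8 came with markers of the choroid plexus, an epithelium of the ventricles in which *Prlr* is abundant. *Ttr*, the main secreted protein of that epithelium, had 10311 counts in this library, 5 in KO replicate 7, 0 and 14 in WT and 2, 20 and 199 in Het. *Kcnj13* had 123 counts against 2 in KO replicate 7, *Folr1* 69 against 2 and *Otx2* 44 against 2. All 12 markers of the list were above 0 in KO replicate 8, and 3 of the 12 were at 0 in KO replicate 7. The summed markers were 123 and 123 CPM in WT, 181, 168 and 257 in Het and 178 and 3930 in KO. With the mean log2 level of these markers as a covariate, *Prlr* in KO minus WT was 1.95 (edgeR adjusted p = 0.943). KO replicate 8 stood far above all other libraries in these markers. The covariate fit is therefore not a test separate from leaving that library out, which gave 1.33. Whether choroid plexus tissue brought the *Prlr* reads was not tested. In Het the *Prlr* counts of 12, 10 and 11 lay next to *Ttr* counts of 2, 20 and 199.

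**Figure D4:**
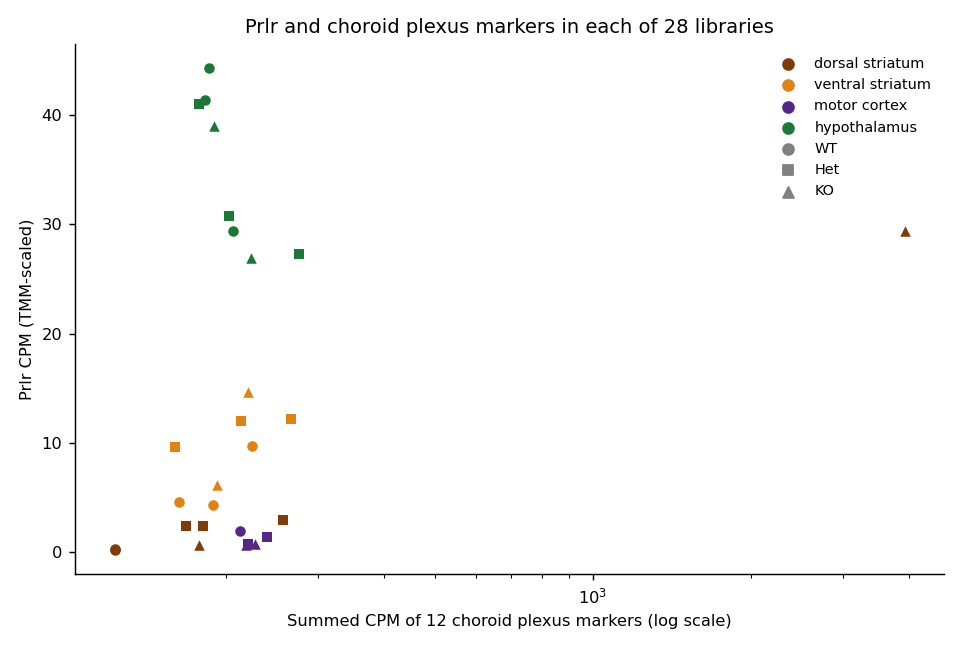
*Prlr* in CPM (vertical axis, linear) against the summed CPM of 12 choroid plexus markers (horizontal axis, log scale) in each of 28 libraries, coloured by region with genotype as marker shape. KO dorsal striatum replicate 8 stands alone at 3930 CPM of markers and 29.4 CPM of *Prlr*. The hypothalamus libraries reach 26.9 to 44.3 CPM of *Prlr* with markers at 178 to 276 CPM. WT dorsal striatum had 123 CPM with 6 or 7 of the 12 markers at 0, so low sums do not measure choroid plexus content.

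The KO effect on *Prlr* in hypothalamus was also set against that in the striata. The KO minus WT difference in hypothalamus minus its mean in dorsal and ventral striatum was −3.44 ± 0.86 (SE, log2; edgeR adjusted p = 0.0213), the 1 member called, where 0.167% of genes were called, 0.0601% lower and 0.107% higher. Without KO dorsal striatum replicate 8 it was −1.24 (0.968), and with the choroid plexus covariate −1.80 (0.504). The replicate block gave −2.77 (0.194), the quasi-likelihood test −3.40 (0.349) and DESeq2 −3.52 (0.0777). The call was also lost in leave-outs of KO hypothalamus replicate 8 (−3.20, 0.839), KO ventral striatum replicate 8 (−3.06, 0.0912), WT dorsal striatum replicates 1 (−3.53, 0.0661) and 2 (−3.34, 0.144) and WT hypothalamus replicates 1 (−3.34, 0.0873) and 3 (−3.39, 0.0665). In hypothalamus itself *Prlr* had 44.3, 29.4 and 41.4 CPM in WT, 30.8, 41.0 and 27.3 in Het and 39.0 and 26.9 in KO, with −0.22 ± 0.55 in KO (0.999).

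Of 8 feeding peptide genes, *Pomc*, *Agrp*, *Npy* and *Hcrt* encode peptides that bind receptors among the 10, and *Trh*, *Pmch*, *Gal* and *Cartpt* encode peptides with other receptors. By edgeR, 7 of the 8 (all but *Npy*) were called higher in hypothalamus than in each of the other regions, as were 11.7% of all genes tested, and *Npy* was called lower than in each, as were 9.23%. *Pomc*, *Agrp*, *Hcrt* and *Pmch* passed the filter only through the hypothalamus and so had to differ, which leaves 3 of the 7 (*Trh*, *Gal* and *Cartpt*). *Hcrt*, the orexin precursor, had a mean of 58.8 CPM in hypothalamus and 0.125 in ventral striatum, and no count in dorsal striatum or motor cortex, which allows up to 0.105 and 0.147 CPM over each region. *Pmch*, the precursor of melanin-concentrating hormone, had 99.6 CPM in hypothalamus against 0.266 in ventral striatum. *Trh* had 24.8 CPM against 2.31 in dorsal striatum and 2.41 in ventral striatum, and *Pomc* had 5.54 against 0.592 and 0.502. *Npy* went against them, at 20.7 CPM in hypothalamus, 78.1 in dorsal striatum, 92.2 in ventral striatum and 108 in motor cortex. So *Npy1r* and *Npy* shared their highest mean in motor cortex, while *Hcrt* and its receptors had theirs in hypothalamus.

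Receptors outside the 10 were counted from lists of the same kind. Of 21 other feeding receptors tested, 15 were higher and 3 lower in hypothalamus than in dorsal striatum (30.7% and 25.5% of all genes), 11 and 4 against ventral striatum (23.9% and 19.7%), and 16 and 2 against motor cortex (25.4% and 22.9%). In all 3 comparisons 9 were higher, among them *Nmur2*, which passed the filter only through the hypothalamus, and 1, *Mchr1*, was lower, against 11.7% and 9.23% of all genes. *Gpr50*, an orphan receptor related to the melatonin receptors, had 27.1 CPM in hypothalamus against 0.322 in dorsal striatum. *Cckar*, a cholecystokinin receptor, had 7.31 against 0.466, *Ntsr1*, a neurotensin receptor, 18.5 against 1.35, and *Nmur2*, a neuromedin U receptor, 2.10 against 0.351. Of 25 other hormone receptors tested, 14 were higher and 5 lower than in dorsal striatum, 12 and 5 against ventral striatum, and 10 and 11 against motor cortex, beside the same shares of all genes. *Esr2*, among those higher in each, passed the filter only through the hypothalamus. *Esr2*, the other nuclear estradiol receptor, was at 1.37 CPM in hypothalamus and 0.385 in dorsal striatum, the vasopressin receptor gene *Avpr1a* at 2.18 and 0.0324 and *Vipr2*, a receptor for vasoactive intestinal peptide, at 7.36 and 0.524. *Vipr1* was lower in hypothalamus, at 0.716 CPM against 10.1 in dorsal striatum, 6.61 in ventral striatum and 16.3 in motor cortex.

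Of 31 tested genes that carry or modify the receptor signal, 9 were higher and 14 lower in hypothalamus than in dorsal striatum, where 30.7% of all genes were higher and 25.5% lower. Against ventral striatum 11 were higher and 10 lower (23.9% and 19.7% of all genes), and against motor cortex 9 and 11 (25.4% and 22.9%). *Irs4*, an insulin receptor substrate, had 65.6 CPM in hypothalamus, 6.70 in ventral striatum, 0.777 in dorsal striatum and 0.154 in motor cortex. *Mrap2*, an accessory protein of the melanocortin and ghrelin receptors, had 25.9 CPM in hypothalamus, 13.7 in ventral striatum, 4.71 in dorsal striatum and 5.34 in motor cortex. *Gnas*, the stimulatory G protein that melanocortin receptors use, had 112, 53.5, 15.7 and 32.7 CPM in the same order. *Akt2*, a kinase downstream of the insulin receptor, was lower in hypothalamus, at 16.1 CPM against 58.0 in dorsal striatum, 30.4 in ventral striatum and 45.9 in motor cortex.

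With genotype, 3 genes of these lists were called over the 8 comparisons with WT. The lists held 8 peptide genes, 21 feeding receptors, 25 hormone receptors and 31 signal genes that were tested. Of all genes, 0.167% were called in KO hypothalamus, where *Npy* and *Vipr1* were. In Het ventral striatum, where *Gal* was called, it was 0.0534% of all genes. *Npy* had 12, 15.7 and 20.2 CPM in WT hypothalamus, 21.3, 19.4 and 20.3 in Het and 21.2 and 35.7 in KO, with a KO minus WT log2 difference of 0.83 ± 0.21 (SE; edgeR adjusted p = 0.0393). It was 0.41 (1.0) without KO replicate 8, and the call was lost without WT replicate 1 (0.65, 0.487) or 2 (0.79, 0.209) as well. *Vipr1* had 0, 2 and 2 counts in WT hypothalamus, 2, 2 and 1 in Het and 1 and 18 in KO, with 2.94 ± 0.82 (0.0132), and −0.14 (1.0) without KO replicate 8. Without WT replicate 1 it was 2.43 (0.258), and without WT replicate 2 it was 3.25 (0.0504). KO hypothalamus replicate 8 is the library with the highest cortical excitatory neuron markers, 571 CPM against 215 in KO replicate 7 and 216, 284 and 238 in WT, with at most 1 of the 10 markers at 0 in any hypothalamus library. Both genes had higher levels in motor cortex than in hypothalamus, and the part of these markers was not tested. *Gal* had 0, 4 and 1 counts in WT ventral striatum and 20, 3 and 26 in Het, with 2.94 ± 0.78 (0.0284). That call was lost without Het replicate 4 (2.90, 0.0975) or 6 (2.35, 0.812) or WT replicate 1 (2.42, 0.62) or 3 (2.66, 0.437), and it was 4.49 (0.00851) without WT replicate 2. For *Npy* and *Vipr1* the KO effect in hypothalamus minus that in the striata was 1.04 ± 0.25 (0.0207) and 3.31 ± 0.86 (0.00553), and without KO hypothalamus replicate 8 it was 0.61 (1.0) and 0.23 (1.0). For the 3 genes the quasi-likelihood test gave adjusted p of 0.396, 0.529 and 1.0 and DESeq2 gave 0.152, 0.242 and 0.519 in the comparison with WT, so neither called them.

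The genes whose log2 CPM followed each receptor most closely over the 28 libraries were read off as a description, since the libraries share regions and the correlations are carried by them. *Ghsr* was most like *Otp* (Pearson r = 0.96), *Hcrt* (0.95) and *Pmch* (0.95), all of them genes of the hypothalamus. *Mc3r* was most like *Nnat*, *Hap1* and *Cachd1* (0.96 each) and *Prlr* most like *Trpm3* (0.95), *Cd81* (0.94) and *Agt* (0.94). *Esr1* followed *Ankrd55* (0.93), *Calb2* (0.93) and *Adcyap1r1* (0.92), and *Hcrtr1* followed *Nxph1* (0.91), *Tonsl* (0.90) and *Podxl2* (0.90). *Hcrtr2* was most like *Nova1* (0.89), *Polr2m* (0.88) and *Thsd7b* (0.87), and *Npy1r* most like *Nt5c3* (0.85), *Zfp697* (0.85) and *Ndrg3* (0.84). The likeness was lower for *Lepr* (*Tnfrsf8* 0.80, *Lmx1a* 0.79, *Rora* 0.79), *Insr* (*Lrrc28* 0.79, *Dcp1b* 0.79, *Eif4a1* 0.78) and *Mc4r* (*Npy2r* 0.75, *Cdh15* 0.74, *Fam196a* 0.74).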

How the data were processed

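The authors deposited raw read counts per gene for each library. Per the labels and methods, RNA was amplified with the Ovation RNA-Seq V2 system, single-end reads were trimmed (Trimmomatic 0.32), cleared of rRNA (Bowtie2 2.2.3), aligned to GRCm38 (STAR 2.3.1z8) and counted on exons in union mode (HTSeq 0.6.1p1), with a strand setting not given in the sources used here. Symbols and positions came from GENCODE M21, which named 28842 of 29878 genes.

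Genes above 1 CPM in at least 2 libraries (14979) were fitted in edgeR 4.0.16 (R 4.3.3) with glmFit and glmLRT, TMM scaling and a mean for each of 12 groups over all 28 libraries. Regions were compared as the mean of 3 genotypes, and KO and Het were compared with WT within each region. Calls were made where the p-value, adjusted by Benjamini and Hochberg over all genes tested, was under 0.05. Log2 fold changes are given with SE, and ratios of summed counts per summed TMM-scaled library size with exact 95% Poisson intervals where a group was at or near 0. An adjusted p beside such a ratio tests the fitted log2 difference, in which genotypes have equal weight, and not the ratio. A count of 0 was taken to allow up to 3 counts. Alternatives were the quasi-likelihood test, DESeq2 1.42.0, size-only scaling, no filter, a choroid plexus covariate, a replicate block, WT libraries alone, the libraries of the region alone and leaving out each library. Without the only WT motor cortex library, regions were compared with motor cortex as the mean of Het and KO. Counts of the KO against WT comparison in dorsal striatum were simulated over 14979 genes. Of these, 73 of 100 genes changed 2-fold and 98 of 100 changed 4-fold were recovered, and 25 unchanged genes were called. The changed genes were drawn only from those above a minimum mean count. *Mc4r*, with 200 counts over 28 libraries, lay below it, as did *Hcrtr1* (255), *Lepr* (259), *Hcrtr2* (263) and *Ghsr* (275). Each gene was simulated at its mean level over all 28 libraries. In WT dorsal striatum *Prlr* had 1 and 1 counts, *Esr1* 0 and 1 and *Mc3r* 1 and 7, below their means over all libraries. Recovery at such low counts was not tested. Pairs of libraries of a group differed by a chi-square per degree of freedom of 1.86 to 14.59, and none looked like a duplicate.

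The 10 members and all lists were chosen with earlier results of these data known. Beside the members, the text names the 4 genes of each list with the largest difference among those called the same way against all 3 other regions, list genes called with genotype, the 3 genes most like each member by Pearson r of log2 CPM (prior count 2), *Hdc* and markers that moved with a member. One gene of the pituitary marker list is not reported here.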

Additional observations from a re-analysis of the deposited data

Results flagged for a closer look

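In 40 series of a member's CPM over the libraries of a region, 3 held a library whose distance to its nearest neighbour was a large share of the range (Dixon's test at 95%). Chance alone is expected to mark about 1 in 20. *Prlr* in KO dorsal striatum replicate 8 stood at 29.4 CPM, with the other 6 libraries at 0.227 to 3.00. *Ghsr* in Het hypothalamus replicate 4 stood at 10.2 CPM, with the other 7 at 4.12 to 6.28. *Hcrtr2* in KO hypothalamus replicate 7 stood at 6.28 CPM, with the other 7 at 2.53 to 4.08. The KO effect on *Prlr* differed between hypothalamus and the striata by −3.44 on the log2 scale, by a test of the difference itself (edgeR adjusted p = 0.0213), and it was −1.24 (0.968) without KO dorsal striatum replicate 8.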

How the results depend on the processing

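Of the count of members called in each comparison, those for hypothalamus against the other regions and for ventral against dorsal striatum stayed within 1.5 times under every alternative run. With WT libraries alone, the 5 members called between motor cortex and dorsal striatum became 2 and the 6 between motor cortex and ventral striatum became 2, on 1 WT motor cortex library. Leaving out 1 library gave 3 to 6 for the first. The 1 member called in KO dorsal striatum became 0 with the choroid plexus covariate and the quasi-likelihood test, and 0 to 1 in leave-outs. The 1 called for the KO effect in hypothalamus against the striata became 0 under DESeq2, the quasi-likelihood test, the choroid plexus covariate and the replicate block, and 0 to 1 in leave-outs. *Insr* in hypothalamus against dorsal striatum reversed with size-only scaling (0.09).

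Same-numbered libraries did not deviate together (34 pairs, mean correlation of deviations 0.007, range −0.08 to 0.086), nor did libraries with different numbers (56 pairs, −0.004). The deviations are from the means of groups of at most 3 libraries. They cannot settle whether same-numbered libraries came from the same mouse. No paired analysis was possible because genotypes share no replicate number, for the comparisons with WT. With the replicate block, the genes called between hypothalamus and dorsal striatum went from 8407 to 8268. Size-only scaling made 80.7% of the calls between hypothalamus and dorsal striatum higher in hypothalamus, against 54.6% with TMM, 79.4% against 54.8% for ventral striatum and 74.4% against 52.6% for motor cortex, and 74.9% against 49.7% of those between ventral and dorsal striatum. Of all genes, the 58 called in KO dorsal striatum became 499 with size-only scaling, 23 under DESeq2, 15 with the covariate and 12 with the quasi-likelihood test. The 25 called in KO hypothalamus became 5 under DESeq2 and 4 with the quasi-likelihood test. *Ghsr* had at most 3 counts per library outside the hypothalamus, which limits what its genotype comparisons there can show.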
